A study of Mus musculus with 6 samples.

Results

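Siglecs are cell surface lectins that bind sialic acid on glycoproteins and glycolipids of the same or a neighbouring cell. Most are carried by leukocytes. Many of them hold tyrosine motifs in the cytoplasmic tail that recruit phosphatases and dampen activation, while a smaller set pairs with the activating adaptor Tyrobp through a charged residue in the membrane. Their ligands are what sialidases such as Neu4 remove, and the cochlea and its bony capsule hold resident macrophages, osteoclasts and small marrow spaces.

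The 8 Siglec genes outside myelin were taken by symbol from a table of 30462 genes, and all 8 were found once: Siglec1, Cd22, Cd33, Siglecg, Siglece, Siglecf, Siglech and Siglec15. Mag, the Siglec of myelin, is not among them. RNA of whole mouse cochleae from postnatal day 7 was sequenced in bulk in 6 libraries, 3 labelled as Neu4 knockout (KO, replicates 2, 4 and 5) and 3 as wild type (WT, replicates 3, 4 and 5). The labels give neither strain nor the part of Neu4 that was changed, and do not say that the libraries came from separate animals, so p-values measure the spread between these libraries only.

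Values are FPKM, fragments scaled by exon length and by the fragments of the library. The whole fragments behind them could be recovered, and library totals were 15170973 to 17192293 fragments. Neu4 itself had 4, 8 and 6 fragments in the libraries labelled KO 2, 4 and 5, against 4, 8 and 6 in WT 3, 4 and 5 (0.0797 ± 0.0255 against 0.0779 ± 0.0242 FPKM, SD, n = 3 each, exact two-sided permutation p = 0.8). Its RNA gives no check of the labels, and "KO" below means the library labelled so. By Xist and Ddx3y, KO 2, WT 3 and WT 4 were male and the other 3 libraries female. Of 12 markers of cochlear cell types 11 passed the filter on low values, and 1, the outer hair cell motor gene Slc26a5, had a mean under 0.1 FPKM.

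Of the 8 genes, 6 lie on chromosome 7 (GRCm38). Siglecf (43351341 to 43359531, plus strand), Siglecg (43408204 to 43418358, plus strand), Cd33 (43524216 to 43544428, minus strand) and Siglece (43651070 to 43660161, minus strand) form 1 cluster. Cd22 (30865402 to 30880342, minus strand) lies beside Mag, and Siglech (55768178 to 55778925, plus strand) lies apart from both. Siglec1 is on chromosome 2 (131069220 to 131086765, minus strand). Cd22 overlaps the antisense gene Gm29439 on the other strand, so that its reads cannot be told from that gene's unless strand was used in counting, which the sources used here leave unsaid.

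RefSeq promoters (GRCm38.p6, 250 bases before to 50 after a start) were at hand for 6 of the 8 genes. Those of the 4 clustered genes are printed, because the 2 receptors whose groups did not overlap, Cd33 and Siglecg, sit in that cluster beside the 2 that did. Capitals mark GAGGAA, a core bound by the myeloid and B cell factor PU.1, or its reverse complement, searched on both strands.
Cd33, chr7:43533122-43533421, minus strand: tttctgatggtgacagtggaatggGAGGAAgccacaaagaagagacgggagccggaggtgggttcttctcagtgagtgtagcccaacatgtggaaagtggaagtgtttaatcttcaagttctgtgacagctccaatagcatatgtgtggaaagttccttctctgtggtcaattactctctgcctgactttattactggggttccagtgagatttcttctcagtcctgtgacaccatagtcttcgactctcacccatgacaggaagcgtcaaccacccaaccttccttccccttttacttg
Siglecg, chr7:43407989-43408288, plus strand: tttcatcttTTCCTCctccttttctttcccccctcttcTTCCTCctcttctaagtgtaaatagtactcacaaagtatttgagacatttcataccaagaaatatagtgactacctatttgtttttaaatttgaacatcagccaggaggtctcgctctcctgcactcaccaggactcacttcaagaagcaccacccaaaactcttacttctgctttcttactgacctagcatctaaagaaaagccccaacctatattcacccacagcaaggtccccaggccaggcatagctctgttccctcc
Siglece, chr7:43660112-43660411, minus strand: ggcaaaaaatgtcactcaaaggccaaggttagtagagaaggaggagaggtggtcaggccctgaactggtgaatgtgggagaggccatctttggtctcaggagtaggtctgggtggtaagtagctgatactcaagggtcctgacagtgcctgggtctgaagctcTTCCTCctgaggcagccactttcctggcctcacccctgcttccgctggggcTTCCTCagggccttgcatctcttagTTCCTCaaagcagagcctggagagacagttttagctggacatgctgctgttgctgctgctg
Siglecf, chr7:43351091-43351390, plus strand: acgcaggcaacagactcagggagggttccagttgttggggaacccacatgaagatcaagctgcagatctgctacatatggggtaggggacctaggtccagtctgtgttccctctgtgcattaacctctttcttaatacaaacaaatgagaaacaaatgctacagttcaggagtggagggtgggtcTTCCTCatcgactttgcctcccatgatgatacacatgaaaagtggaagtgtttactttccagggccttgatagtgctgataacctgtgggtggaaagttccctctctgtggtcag

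The core stood 226 bases before the start in Cd33, 241 and 212 bases before it in Siglecg, 87, 36 and 11 bases before it in Siglece and 65 bases before it in Siglecf. The Cd33 window lies inside the annotated gene, whose 5' end on the minus strand is at 43544428, and that end has no window here. The Cd22 window also lies inside its gene. A second RefSeq start of Siglecg had 0 matches in its window, as had Cd22, and Siglech had 1. Among all 32851 promoters of this length 28.3% held a match. The Cd33 and Siglecf windows shared a run of 16 identical bases, aaagtggaagtgttta, against a median longest run of 9 bases over the 20 pairs of windows from different genes. These matches describe letters in a window and show no binding.

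The receptors were low in the cochlea, and their order was led by that of osteoclasts. Averaged over the 6 libraries, Siglec15 had 3.76 FPKM, Siglec1 2.23, Cd33 1.70, Siglece 1.29, Cd22 0.339, Siglecg 0.213, Siglech 0.204 and Siglecf 0.107. Mag, for scale, had 10.8 FPKM. Between neighbours in this order, the ranges over the 6 libraries were apart for Siglec15 over Siglec1 and for Siglece over Cd22, and overlapped for the other 5 pairs. Siglecg was above Siglech in only 3 of 6 libraries, so these 2 have no order. FPKM divides by the joined exons of all transcripts, which for Cd33 came to 7771 bp against 5728 bp for its longest transcript. Dividing by the longest transcript in place of that sum, a choice made after seeing the data, Cd33 stood at 2.31 and Siglec1 at 2.49, and Siglech (0.3003) passed Siglecg (0.257). Siglec15 has 1 annotated transcript of 1156 bp.

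**Figure D1:**
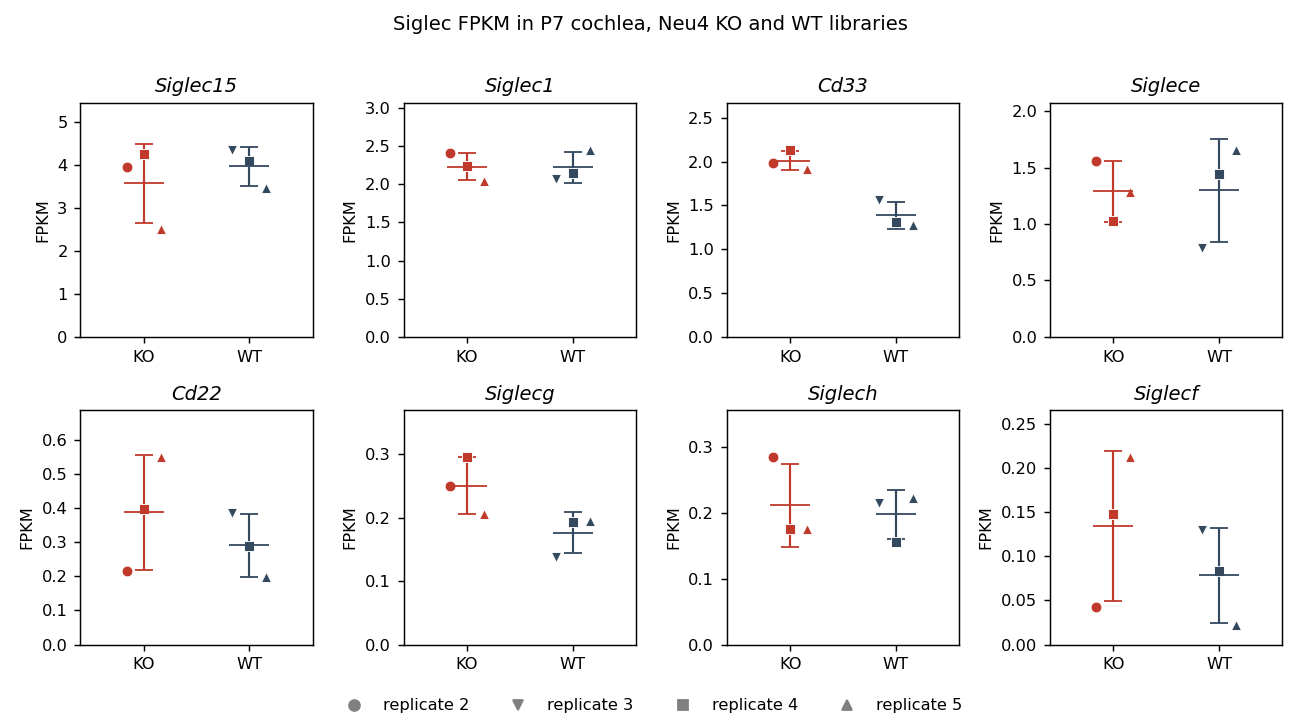
FPKM of each Siglec gene (y axis, linear from 0, own scale per panel) in the 3 KO and 3 WT libraries. Symbols give the replicate number, long bars the mean and whiskers 1 SD. KO and WT points are apart in the Cd33 and Siglecg panels and overlap in the other 6.

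Between the genotypes, 0 of the 4 Siglecs that could be tested passed (limma on log2(FPKM + 1), Benjamini-Hochberg adjusted p under 0.05 over 14072 genes), where 0.334% of all tested genes did. The filter asked for 1 FPKM or more in 3 or more libraries, which Siglec1, Cd33, Siglece and Siglec15 met and Cd22, Siglecg, Siglech and Siglecf did not. At an unadjusted p under 0.05 there was 1 of the 4, Cd33, against 17.6% of tested genes, and Cd33 was also the 1 whose groups did not overlap, against 24.8% in either direction and 15.2% with KO higher. When the filter was lowered to 0.1 FPKM, which let in all 8, 0 passed, against 0.101% of genes, and at an unadjusted p under 0.05 the share of genes was 14.5%. With voom (limma) on the recovered fragments, which took in all 8, Cd33 was the 1 call, against 1.82% of the 21282 genes in that fit, of which 15.8% had an unadjusted p under 0.05.

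Cd33, a receptor of myeloid cells that in the mouse is reported to pair with Tyrobp, had the clearest difference. It had 1.98, 2.14 and 1.92 FPKM in KO 2, 4 and 5, against 1.57, 1.31 and 1.28 FPKM in WT 3, 4 and 5. Every KO library was above every WT library. The means were 2.01 ± 0.112 in KO and 1.39 ± 0.158 in WT (SD, n = 3 each), a ratio of 1.45. On the log2(FPKM + 1) scale the change was 0.34 (SE 0.087, 95% interval 0.13 to 0.54), with an adjusted p of 0.138 (limma), so that it missed the threshold. Voom gave a log2 fold change of 0.54 and an adjusted p of 0.0355 for Cd33, and the 14 other alternatives gave adjusted p of 0.135 to 0.361 (limma). By fragments, 764 in KO stood against 535 in WT, and the ratio of rates was 1.46 with a 95% counting interval of 1.30 to 1.63. More cells of a type and more RNA per cell cannot be told apart in such bulk samples.

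Siglec1, or sialoadhesin, a long receptor of tissue macrophages with no inhibitory tail motif, was level between the groups. It had 2.40, 2.23 and 2.05 FPKM in KO 2, 4 and 5, against 2.07, 2.15 and 2.45 FPKM in WT 3, 4 and 5, which overlap. The log2 fold change was 0.0024 (95% interval -0.19 to 0.20, adjusted p = 0.992, limma). With 778 fragments in KO and 788 in WT, the ratio of rates was 1.01 (95% counting interval 0.91 to 1.11), the narrowest of the 8.

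Siglece, an inhibitory receptor of neutrophils, monocytes and macrophages, varied more within the groups than between them. It had 1.56, 1.02 and 1.28 FPKM in KO 2, 4 and 5, against 0.786, 1.45 and 1.66 FPKM in WT 3, 4 and 5. WT 3 was the lowest and WT 5 the highest of all 6, so that WT spans the whole KO range. The log2 fold change was 0.0080 (95% interval -0.39 to 0.41, adjusted p = 0.987, limma). The variance within groups was 3.28 times that of counting error alone (4 degrees of freedom), on 116 fragments in KO and 119 in WT.

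Siglec15 (chromosome 18, 78043614 to 78057395, minus strand), a Tyrobp-pairing receptor that osteoclasts need to mature, had 3.95, 4.24 and 2.51 FPKM in KO 2, 4 and 5, against 4.35, 4.08 and 3.46 FPKM in WT 3, 4 and 5. The lowest value was that of KO 5, and KO 2 and KO 4 lay within the WT range. The log2 fold change was -0.14 (95% interval -0.51 to 0.23, adjusted p = 0.683, limma). Without KO 5 it was 0.041, so that this 1 library sets the direction.

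The other 4 receptors rested on few fragments and were compared by exact two-sided permutation of their FPKM, which for 3 against 3 libraries cannot give a p under 0.1. Cd22, an inhibitory receptor of B cells that raises the threshold of the antigen receptor, had 0.214, 0.398 and 0.549 FPKM in KO 2, 4 and 5, against 0.384, 0.288 and 0.199 in WT 3, 4 and 5. The groups overlapped (exact permutation p = 0.4), and 94 fragments in KO stood against 73 in WT. Its variance within groups was 4.17 times that of counting error, the highest ratio of the 8.

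Siglecg, the inhibitory receptor of B1 cells, had 0.250, 0.295 and 0.206 FPKM in KO 2, 4 and 5, against 0.139, 0.194 and 0.195 in WT 3, 4 and 5. All KO values were above all WT values, but the lowest KO library and the highest WT library had 15 fragments each and differ only in their totals. The mean ratio was 1.42 (exact permutation p = 0.1, the smallest possible). The ratio of rates from 59 and 42 fragments was 1.43, and its 95% counting interval of 0.948 to 2.18 takes in equal rates.

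Siglech, a Tyrobp-pairing receptor of plasmacytoid dendritic cells and microglia, had 0.284, 0.175 and 0.175 FPKM in KO 2, 4 and 5, against 0.215, 0.155 and 0.222 in WT 3, 4 and 5 (exact permutation p = 0.8). The groups overlapped, on 35 fragments in KO and 33 in WT. Siglecf, the inhibitory receptor of eosinophils, had 2, 7 and 9 fragments in KO 2, 4 and 5, against 6, 4 and 1 in WT 3, 4 and 5. Its means of 0.135 ± 0.0856 and 0.0787 ± 0.0541 FPKM (SD, n = 3 each) came from overlapping groups (exact permutation p = 0.4), and the counting interval of its rate ratio ran from 0.746 to 3.91.

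**Figure D2:**
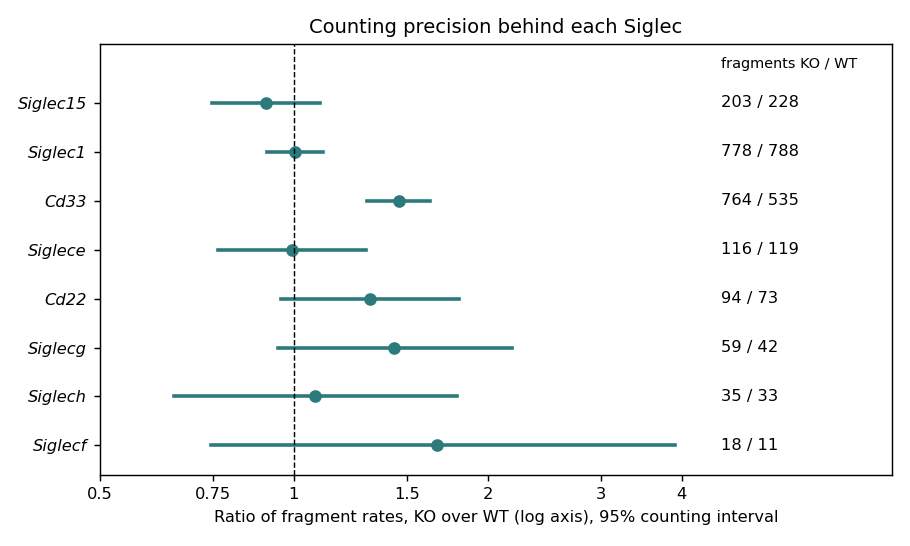
Ratio of summed fragment rates, KO over WT, for each Siglec (points, log axis) with its 95% exact counting interval (lines), and the fragments of 3 KO and 3 WT libraries at the right. The intervals cover counting error only. The line of Cd33 (1.30 to 1.63) is the 1 of 8 that stays clear of 1, and that of Siglecf is the widest.

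Over all 8, the groups did not overlap for 2, both higher in KO. The same held, in either direction, for 21.3% of the 20861 genes that passed the filter at 0.1 FPKM, and 13.1% were apart with KO higher. The 2 of 8 is near the first share and above the second, and 8 genes are too few to compare shares. Summed over the 8, KO libraries had 10.7, 10.7 and 8.90 FPKM and WT libraries 9.64, 9.70 and 9.49 FPKM, which overlap. The 4 receptors with inhibitory tails (Cd22, Siglecg, Siglece, Siglecf) summed to 2.06 ± 0.193 FPKM in KO and 1.84 ± 0.350 in WT, and the 3 that pair with Tyrobp (Cd33, Siglech, Siglec15) to 5.79 ± 1.04 in KO and 5.55 ± 0.582 in WT (SD, n = 3 each). Both sums overlapped between the groups.

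Each receptor was next set beside markers of 1 cell type assigned to it before the test. Several of the receptors have other carriers, so a like gap does not name the cell behind a receptor. On log2(FPKM + 0.1), the level of the receptor minus the mean of its marker list overlapped between KO and WT for all 8, with exact permutation p of 0.3 to 1.0. Cd33 differed from the monocyte list by a mean of -0.61 in KO and -0.63 in WT, and the monocyte list mean was itself 0.49 higher in KO on this scale (exact permutation p = 0.1). Of the 6 monocyte markers tested 0 passed (limma), all 6 had a log2 fold change above 0, and their median was 0.23 against 0.022 over all tested genes, of which 56.9% were above 0. Among these 6, 3 were apart with KO higher and 0 with KO lower. The cochlear cell type list had a like median of 0.22, with 9 of 11 tested genes above 0 and 0 called (limma). In that list 8 were apart with KO higher and 1, Sox2, with KO lower. Over all tested genes 24.8% were apart in either direction and 15.2% with KO higher. F13a1, a transglutaminase subunit of monocytes and macrophages, had 18.02 ± 0.543 FPKM in KO and 14.1 ± 0.897 in WT, and Csf2ra, a growth factor receptor chain, 20.2 ± 1.00 and 20.1 ± 1.251 (SD, n = 3 each). Ly6c2 and Ccr2, which define inflammatory monocytes, had 0.749 ± 0.232 and 0.691 ± 0.251 FPKM in KO and 0.306 ± 0.111 and 0.356 ± 0.0806 in WT. Their summed list ran from 48.3 to 52.4 FPKM in KO and from 42.4 to 43.6 in WT. Neutrophils are myeloid cells too, and their list mean was 0.90 higher in KO (exact permutation p = 0.2). Cd33 was not set against that list. The part of monocyte or neutrophil content in the Cd33 difference was not tested.

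The gap between Siglece and the neutrophil list differed most of the 8 between the genotypes, but its groups overlapped. Receptor minus list was -1.37 ± 0.614 in KO and -0.508 ± 0.874 in WT (SD, n = 3 each), a difference of -0.86 (exact permutation p = 0.3). It was -0.37 without WT 5 and -0.56 without KO 4. The summed neutrophil list ran from 98.5 to 171 FPKM in KO and from 39.4 to 103 in WT, and its alarmin S100a9 had 51.2 ± 14.9 FPKM in KO and 19.3 ± 8.40 in WT. Of the 9 neutrophil genes tested 0 passed (limma), 8 were above 0 and the median log2 fold change was 1.03. Among these 9, 6 were apart with KO higher and 0 with KO lower, where 15.2% of all tested genes were apart with KO higher. WT 5, which had the lowest neutrophil list mean (0.325), had the highest Siglece. Of the other carriers of Siglece, the monocyte list is given above and the macrophage list had a median of -0.0089, with 0 of 15 tested genes called and sums of 388 to 398 FPKM in KO and 387 to 407 in WT.

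Siglec1 minus the macrophage list averaged -1.61 in KO and -1.55 in WT (difference -0.061, exact permutation p = 0.6). The lysosomal glycoprotein gene Cd68 had 122 ± 6.77 FPKM in KO and 126 ± 4.91 in WT, and the growth factor receptor gene Csf1r 59.4 ± 2.52 and 61.2 ± 1.73 (SD, n = 3 each), and both overlapped between the groups. Of the 15 tested macrophage genes 2 were apart, both with KO higher: the mannose receptor gene Mrc1 (13.9 ± 1.58 FPKM in KO and 10.9 ± 1.19 in WT) and the engulfment receptor gene Mertk (13.2 ± 0.855 in KO and 10.96 ± 0.397 in WT), with adjusted p of 0.178 and 0.128 (limma). Over all tested genes 15.2% were apart with KO higher. Of the 18 macrophage markers 1, Vsig4, was under 0.1 FPKM.

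The osteoclast list was the most abundant, at summed levels of 2995.1 to 3403 FPKM in KO and 2994.8 to 3122 in WT. Siglec15 lay on average 3.50 log2 units below its mean in KO and 3.28 below it in WT (mean difference -0.22, exact permutation p = 0.5). The collagen-digesting protease gene Ctsk had 1498 ± 66.5 FPKM in KO and 1441 ± 70.9 in WT, and the matrix protease gene Mmp9 1162 ± 96.5 and 1121 ± 40.5. Of the 10 osteoclast genes tested 0 passed (limma), with a median log2 fold change of 0.039. KO 5, which was lowest in Siglec15, had an osteoclast list mean of 5.30 against 5.23 to 5.38 in the other libraries.

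The B cell pair lay below the mean of the B cell list in both genotypes, and its gap to the list overlapped between them. Cd22 minus the list averaged -0.904 in KO and -0.9602 in WT (exact permutation p = 1.0; the difference of 0.056 was -0.26 without KO 5 and 0.36 without KO 2), and Siglecg minus the list -1.33 and -1.44 (p = 0.5, exact permutation). The summed list ran from 37.2 to 41.4 FPKM in KO and from 32.4 to 35.4 in WT, with 0 of 5 tested genes called (limma) and a median of 0.17. Ighm, the heavy chain of immunoglobulin M, had 18.5 ± 1.35 FPKM in KO and 14.1 ± 0.230 in WT, and the B lineage factor gene Ebf1, which other tissues also express, 11.4 ± 0.475 and 11.4 ± 0.351. Ms4a1 and Cr2, which mark mature B cells, were under 0.1 FPKM on average. Whether B cell content moves Siglecg was not tested.

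Eosinophils were barely traced. The eosinophil list summed to 3.31 to 6.38 FPKM in KO and 2.14 to 5.34 in WT, with 1 gene of 9 passing the filter (Prg2, a granule protein gene, 1.62 ± 0.706 in KO and 1.14 ± 1.42 in WT). Ear2, a granule ribonuclease gene, had 1.12 ± 0.552 and 0.556 ± 0.153 FPKM, and Prg3 and Il5ra were under 0.1. Siglecf minus this list averaged -0.923 in KO and -0.884 in WT (exact permutation p = 1.0). In the plasmacytoid dendritic cell list 6 of 12 genes passed the filter, and Ccr9 and Cd300c were under 0.1 FPKM. The 2 highest, Bst2 (18.6 ± 3.02 in KO and 18.6 ± 2.19 in WT) and Pacsin1 (5.64 ± 1.04 and 4.42 ± 0.485), are expressed by other cells too. Siglech minus it averaged -1.91 in KO and -1.87 in WT (p = 0.8, exact permutation). The microglia list, the other carrier of Siglech, summed to 198 to 228 FPKM in KO and 194 to 209 in WT, with Tmem119, which bone cells also carry, at 106 ± 10.8 in KO and 101 ± 4.99 in WT.

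**Figure D3:**
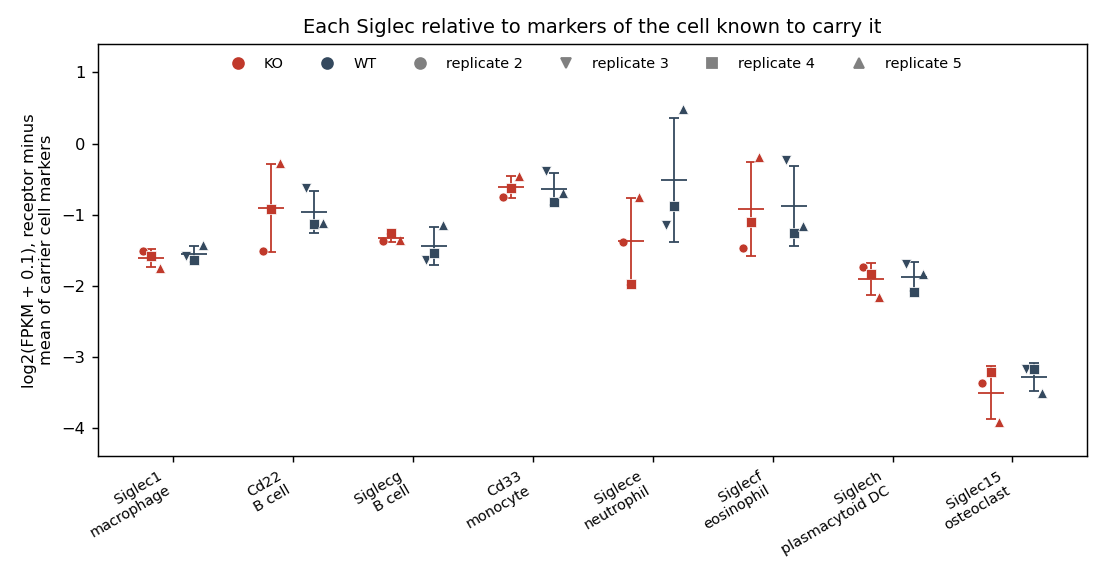
Each Siglec minus the mean of markers of the cell type assigned to it, in log2(FPKM + 0.1), per library (points, shape for the replicate), with mean and SD (bars). KO and WT points overlap for all 8. The KO and WT means differ most for Siglece against neutrophil markers (-1.37 in KO and -0.508 in WT).

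Of the signalling partners, 0 of 14 tested genes passed in either direction (limma), with a median log2 fold change of 0.071. Tyrobp, the adaptor of Cd33, Siglech and Siglec15, had 46.0 ± 2.91 FPKM in KO and 44.2 ± 1.58 in WT, and the Src family kinase gene Fyn 36.2 ± 0.400 and 37.2 ± 0.403. Ptpn6, the phosphatase recruited by inhibitory Siglecs, had 7.78 ± 1.09 in KO and 7.36 ± 0.270 in WT. Tyrobp and Ptpn6 overlapped between the groups. Of the 14 tested partners 5 were apart, Lyn, Vav1 and Plcg2 with KO higher and Src and Fyn with KO lower. Over all tested genes the share apart was 24.8% in either direction and 15.2% with KO higher.

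Of the genes that make or trim sialic acid ligands, 30 of 31 were in the table and 0 of the 20 tested passed (limma), with a median log2 fold change of 0.022, which is that of all genes. Among these 20, 5 were apart with KO higher, St3gal5 being 1 of them, and 2 with KO lower. Over all tested genes 24.8% were apart in either direction. The sialyltransferase gene St3gal1 had 32.4 ± 3.15 FPKM in KO and 30.6 ± 1.08 in WT, and St3gal5, which makes the ganglioside GM3, 26.4 ± 1.23 and 23.8 ± 0.567. St6gal1, which makes the glycan that CD22 prefers, had 10.001 ± 0.632 and 10.2 ± 0.760. Cmah, which turns the common sialic acid into the glycolyl form that mouse CD22 favours, was at 0.213 ± 0.0891 in KO and 0.165 ± 0.0344 in WT. Of 8 tested genes for protein ligands 0 passed, among them Cd24a, the Siglecg ligand (56.8 ± 1.80 in KO and 59.0 ± 2.06 in WT), and Tgfb1, a growth factor gene (37.9 ± 5.68 and 39.4 ± 1.28). Of the 8, 3 were apart: Cd44 (18.7 ± 1.06 FPKM in KO and 15.1 ± 0.319 in WT) and Cd52 (4.28 ± 0.794 in KO and 2.72 ± 0.578 in WT) with KO higher, and Muc1 (1.73 ± 0.257 in KO and 2.97 ± 0.571 in WT) with KO lower. Their adjusted p were 0.0793, 0.164 and 0.125 (limma), and the share apart over all tested genes was the same 24.8%.

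Among the leukocyte lists that carry none of the 8 by this assignment, mast cell genes were the 1 list with a call. Mcpt4, a mast cell protease gene, had 3.04 ± 1.54 FPKM in KO and 12.4 ± 0.868 in WT, and Cma1, another, 3.01 ± 1.13 and 8.62 ± 1.503 (SD, n = 3 each). The list summed to 11.1 to 19.7 FPKM in KO and 34.8 to 41.1 in WT. Among its 5 tested genes 4 were apart with KO lower and 0 with KO higher. Over all tested genes 24.8% were apart in either direction. In the T and NK cell list 1 of 9 genes passed the filter, Cd4 (2.23 ± 0.0794 in KO and 2.08 ± 0.166 in WT), and 5, the Cd3 chains among them, were under 0.1 FPKM.

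**Figure D4:**
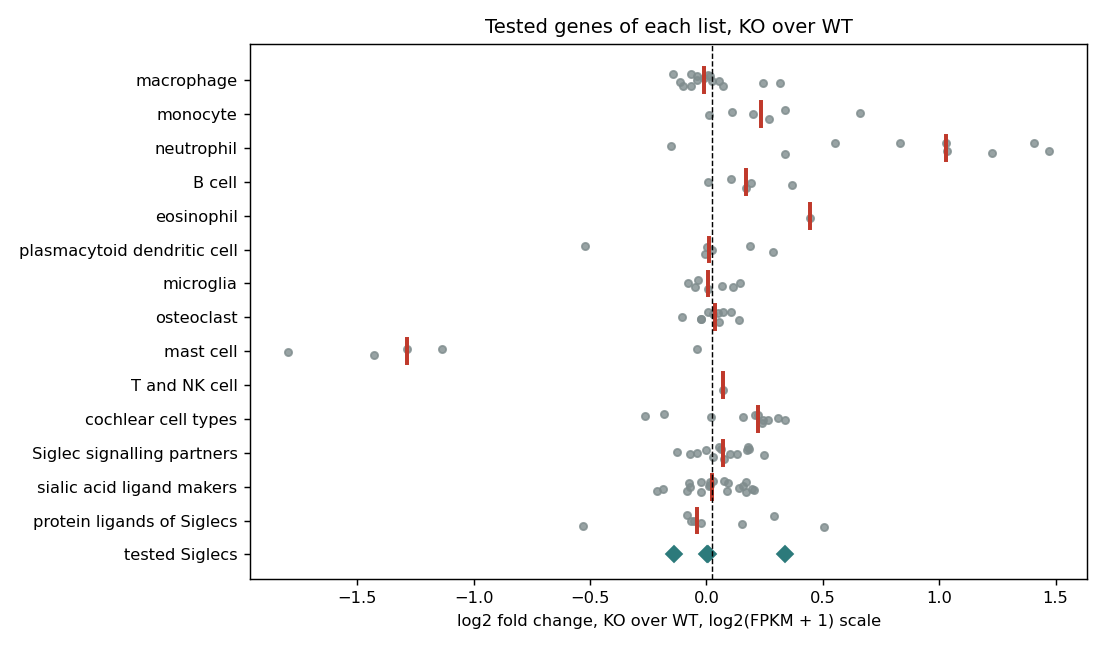
Log2 fold change, KO over WT, of each tested gene (grey points) on the log2(FPKM + 1) scale, by list, with the list median (red bars), the median of all tested genes (dashed line, 0.022) and the 4 tested Siglecs (diamonds). The medians of the neutrophil (1.03), eosinophil (0.44, 1 gene), monocyte (0.23), cochlear (0.22) and B cell (0.17) lists lie furthest right of the line. The mast cell median (-1.28) lies furthest left of it, and Cd33 (0.34) lies right of the other 3 Siglecs.

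The genes with the most similar course over the 6 libraries were found by the root mean square difference of centred log2(FPKM + 1) values. For Cd33 they were Ppm1e (0.035), Mef2c (0.035) and Gm16089 (0.037), against a median of 0.197 over all tested genes. For Siglec15 they were Leng9 (0.071), Adam8 (0.075) and Lrrc3c (0.079), against 0.242. Siglece was closest to Chac1 (0.039), Ier3 (0.053) and Snrpert (0.067), against 0.221, and Siglec1 to Chn1 (0.0198), Osbpl7 (0.0200) and Nae1 (0.021), against 0.119. Adam8 is a membrane protease gene that osteoclasts and neutrophils are known to express, and Mef2c a transcription factor gene of muscle, neurons and B cells.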

How the data were processed

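The authors deposited FPKM values, 1 column per library, made on GRCm38 per the submitters' processing notes; the sources used here name no aligner, counter or strand setting, and the kit was VAHTS Universal V6 per the labels. Multiplied by exon length (GENCODE M21), 98.3% of genes gave whole fragments in every library (tolerance 0.01 fragment and 1e-06 of the value), the 8 Siglecs included. Counting intervals, those of the rate ratios, are exact conditional binomial ones and cover counting error only. The intervals of log2 fold changes are those of limma and rest on the spread between libraries. The 14072 genes that reached 1 FPKM in 3 or more libraries entered limma (trend, two-sided) on log2(FPKM + 1), which understates the change of low genes. The members and lists were chosen with earlier results of these data known. The rule for named genes took all 8 Siglecs, Neu4, called genes and the 2 most abundant of each list, and the 3 nearest courses, except 1 list gene that is not reported here; Ly6c2, Ccr2, Ptpn6, St6gal1, Cmah, the list genes given as apart and markers under 0.1 FPKM were named after their values were seen. A count model was planned only for a file of raw counts; on the recovered fragments voom was the 1 alternative run. A planned adjustment over the 8 Siglecs is not given. The test was checked on simulated data. Versions were limma 3.58.1 in R 4.3.3, and scipy 1.17.1, pandas 2.3.3, numpy 2.4.6 and matplotlib 3.10.9 in Python 3.11.15.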

Additional observations from a re-analysis of the deposited data

How the results depend on the processing

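Of the Siglecs 0 passed in 14 of 15 alternatives, and 1, Cd33, passed with voom (log2 0.54, adjusted p = 0.0355). Over all genes the 47 calls (18 higher, 29 lower) became 19 with no filter, 21 with the filter at 0.1 FPKM, 19 with no trend, 24 with sex as a covariate, 388 with voom (213 higher, 175 lower) and 12 to 105 with 1 library left out (15 without KO 2, 16 without KO 4, 105 without KO 5, 12 without WT 3, 12 without WT 4, 21 without WT 5); median-ratio scaling gave 48, 11 of them higher and 37 lower in KO. The groups share the numbers 4 and 5, and the deviations of same-numbered libraries correlated at 0.141 and 0.1498 across genes. Those of KO 4 with WT 5 correlated at -0.071, and those of KO 5 with WT 4 at -0.125. Still, 2 numbers do not pair 3 libraries each. A replicate block gave 22 calls, 0 Siglecs among them, and log2 values of 0.40 for Cd33, -0.071 for Siglec1 and -0.25 for Siglece. Siglec1 and Siglece turned below 0 with median-ratio scaling (-0.019 and -0.0089) and sex as a covariate (-0.0034 and -0.0078). With 1 library left out the log2 ranges (limma) were -0.036 to 0.053 for Siglec1, -0.16 to 0.12 for Siglece, 0.31 to 0.39 for Cd33 and -0.25 to 0.041 for Siglec15. For the 4 low receptors the value was the log2 ratio of mean FPKM, which cannot be set beside the log2(FPKM + 1) scale. It ran from -0.17 to 0.22 for Siglech, 0.077 to 0.71 for Cd22, 0.36 to 0.63 for Siglecg and 0.28 to 1.35 for Siglecf. The cause of these changes was not tested. With median-ratio scaling this log2 ratio was 0.38 for Cd22, 0.48 for Siglecg, 0.74 for Siglecf and 0.070 for Siglech. The other settings on the filtered fit with all 6 libraries gave no value for the 4 low receptors. Their rows with no filter, the lower filter or voom kept the direction above 0. With no filter, limma on log2(FPKM + 1) gave 0.0997 for Cd22, 0.088 for Siglecg, 0.071 for Siglecf and 0.016 for Siglech.

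Receptor minus carrier list (KO minus WT) changed sign with a pseudocount of 1 for Cd22 (-0.0060), Siglecg (-0.017) and Siglech (0.017), with 0.01 for Cd33 (-0.0044) and Siglecf (0.12), and with the list median for Cd22 (-0.045), Siglecf (0.069) and Siglech (0.26). With 1 library left out it ran from -0.115 to 0.0079 for Siglec1, -0.26 to 0.36 for Cd22, 0.014 to 0.26 for Siglecg, -0.070 to 0.15 for Cd33, -1.18 to -0.37 for Siglece, -0.40 to 0.29 for Siglecf, -0.14 to 0.092 for Siglech and -0.36 to -0.0073 for Siglec15. Neu4, KO minus WT, ran from -0.011 to 0.016 FPKM. Siglecf (29 fragments in all) and Siglech (68) limit what can be seen at this depth.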
